A study of Mus musculus with 6 samples.

Results

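The 10 genes described here are the AP-1 and immediate early genes Jun, Junb, Jund, Fos, Fosb, Fosl2, Atf3, Egr1, Nr4a1 and Arc, matched by symbol in a table of 43346 genes, of which 16934 had enough reads to be tested. All 10 were found, and all 10 passed the filter on low counts. They were measured by RNA sequencing in the whole cerebellum of mice aged 15 months. One group, called KO, was homozygous for a Tmem106b knockout allele (Tmem106b-/-, 3 mice), and the other was wild type (WT, Tmem106b+/+, 3 mice). Each genotype had 1 female, which is replicate 1, and 2 males, replicates 2 and 3, with 1 library per mouse. TMEM106B sits in the membranes of lysosomes and late endosomes, and the study asked what its loss does to the aged cerebellum and its Purkinje cells. The labels do not say how the allele was made or name the strain, and they name no treatment.

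AP-1 is a transcription factor made of pairs of leucine zipper proteins, in which a Jun protein binds another Jun protein, a Fos protein or an ATF protein. Many of its genes are immediate early genes. Calcium entry, growth factors, stress or axon injury switch these on within minutes, through kinases that act on factors already present. No new protein is needed. In neurons, Fos, Egr1, Nr4a1 and Arc are widely used as marks of recent activity. Jun and Atf3 are best known for the slower response of a neuron to a damaged axon, in which the Jun N-terminal kinases (JNK) phosphorylate the Jun protein and Jun takes part in switching on its own gene.

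The promoters of Jun, Atf3, Fos and Nr4a1 are shown because these genes followed 2 different patterns over the mice, described after them: Jun and Atf3 separated the genotypes, while Fos and Nr4a1 were highest in both females. Each is the 250 bases before the start of the gene in RefSeq, 5′ to 3′ on the strand of the gene, in build GRCm38.p6. Capitals mark the CRE-like site TGACNTCA or the CRE half-site TGACG, the letters read by CREB and ATF proteins, on either strand.
Jun, chr4:95052223-95052472, minus strand: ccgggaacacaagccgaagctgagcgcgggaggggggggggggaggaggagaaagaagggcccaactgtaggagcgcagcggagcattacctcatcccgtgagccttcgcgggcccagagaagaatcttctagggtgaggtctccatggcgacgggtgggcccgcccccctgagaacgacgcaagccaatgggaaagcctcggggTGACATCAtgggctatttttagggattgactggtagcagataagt
Atf3, chr1:191183334-191183583, minus strand: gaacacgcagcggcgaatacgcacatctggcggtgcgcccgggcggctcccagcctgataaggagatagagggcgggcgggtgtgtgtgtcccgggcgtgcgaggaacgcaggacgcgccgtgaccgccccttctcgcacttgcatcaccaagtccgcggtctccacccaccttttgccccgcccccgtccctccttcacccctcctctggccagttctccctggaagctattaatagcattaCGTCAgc
Fos, chr12:85473640-85473889, plus strand: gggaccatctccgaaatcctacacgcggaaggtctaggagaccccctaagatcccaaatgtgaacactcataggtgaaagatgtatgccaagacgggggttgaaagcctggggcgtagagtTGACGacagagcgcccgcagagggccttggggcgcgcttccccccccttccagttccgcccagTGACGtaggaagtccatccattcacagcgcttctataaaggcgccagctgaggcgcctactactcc
Nr4a1, chr15:101266596-101266845, plus strand: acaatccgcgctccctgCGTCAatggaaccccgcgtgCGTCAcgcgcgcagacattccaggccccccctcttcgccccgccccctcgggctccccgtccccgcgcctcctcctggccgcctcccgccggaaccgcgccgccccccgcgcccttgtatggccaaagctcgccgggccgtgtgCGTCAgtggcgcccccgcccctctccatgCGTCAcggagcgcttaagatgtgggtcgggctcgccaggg

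The Jun promoter held 1 CRE-like site, 45 to 38 bases before the start, and no half-site. The Atf3 promoter held 1 half-site, 7 to 3 bases before the start. Fos had 2 half-sites, 129 to 125 and 66 to 62 bases before the start, and Nr4a1 had 4. In the same window of all 32851 RefSeq promoters of the table, 7.49% held a CRE-like site and 17.8% a half-site; a full palindromic CRE counts as both. The AP-1 site TGANTCA (6.75% of promoters) and the CArG box bound by serum response factor (1.47%) had no match in these 4 windows. The CArG box was searched only as CCWWWWWWGG, where W is A or T. Looser forms, and sites further upstream, were not searched. The promoter table matched 8 of the 10 genes, without Arc and Egr1. Of the matched genes not shown, Junb, which also separated the genotypes, and Fosb each held 1 half-site. Fosl2, which was also highest in both females, and Jund held neither kind of site. A link between these sites and the patterns was not tested. The Atf3 start lies inside the gene model of the count table, which spans chromosome 1 from 191170296 to 191218039, so it is not the model's outermost start.

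The libraries held 25245778 to 28584165 counts in KO and 29658618 to 31135185 in WT. Tmem106b had 69.7, 67.9 and 62.7 CPM (counts scaled to library size by TMM) in KO and 230, 267 and 238 CPM in WT, as the labels say. The WT female stood apart on the first principal component (35.6% of the variance), at -40.1 with the other libraries between -10.8 and 22. The KO female stood apart on the second (26.9%), at 38.5 with the others between -14.4 and 5.98. On the third (17.9%) a male, KO replicate 3, lay at -27.7 and the others between -10 and 15.8. Markers of granule cells, the most numerous cerebellar neurons, were present in every library, with a summed level over 9 genes of 6216 to 6498 CPM in KO and 5843 to 6320 CPM in WT. RNA was taken from whole tissue, so fewer cells of a type and less RNA per cell cannot be told apart.

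Among the 10 genes, Jun and Atf3 were higher and Junb was lower in all 3 KO mice than in any WT mouse, while the other 7 overlapped between genotypes. The members were chosen by name with these KO and WT counts known, so their values are a description and carry no test. By edgeR's quasi-likelihood fit, 48 of 16934 genes (0.283%) had a Benjamini-Hochberg adjusted p under 0.05, and 0 of the 10 were among them. The 48 became 1 without WT replicate 2 or 3. Under other processing, Jun was past the threshold in 6 of 14 alternatives, also a description only. These were no filter (0.751% of all genes past it), a mean of at least 1 CPM (0.514%) and DESeq2 (1.43%). The others were no sex term (0.36%), GC and length offsets (1.6%) and the fit without KO replicate 3 (0.906%). Of the fits that leave out a library, only that last one called Jun. Jund was past the threshold in 1 alternative, the GC and length offsets. Groups did not overlap for 7.77% of all genes in the higher and 6.35% in the lower direction, and nothing is read from the members' counts against these shares. The median log2 fold change of the 10 was 0.01, with 5 above 0 and 5 below, and over all genes it was 3e-04, with 50.1% above 0. The smallest counts limit the low genes: Fosb had 22 to 33 reads per library and Junb 27 to 47, where counting alone gives an error of 21.3% and 19.2% at the lowest count.

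**Figure D1:**
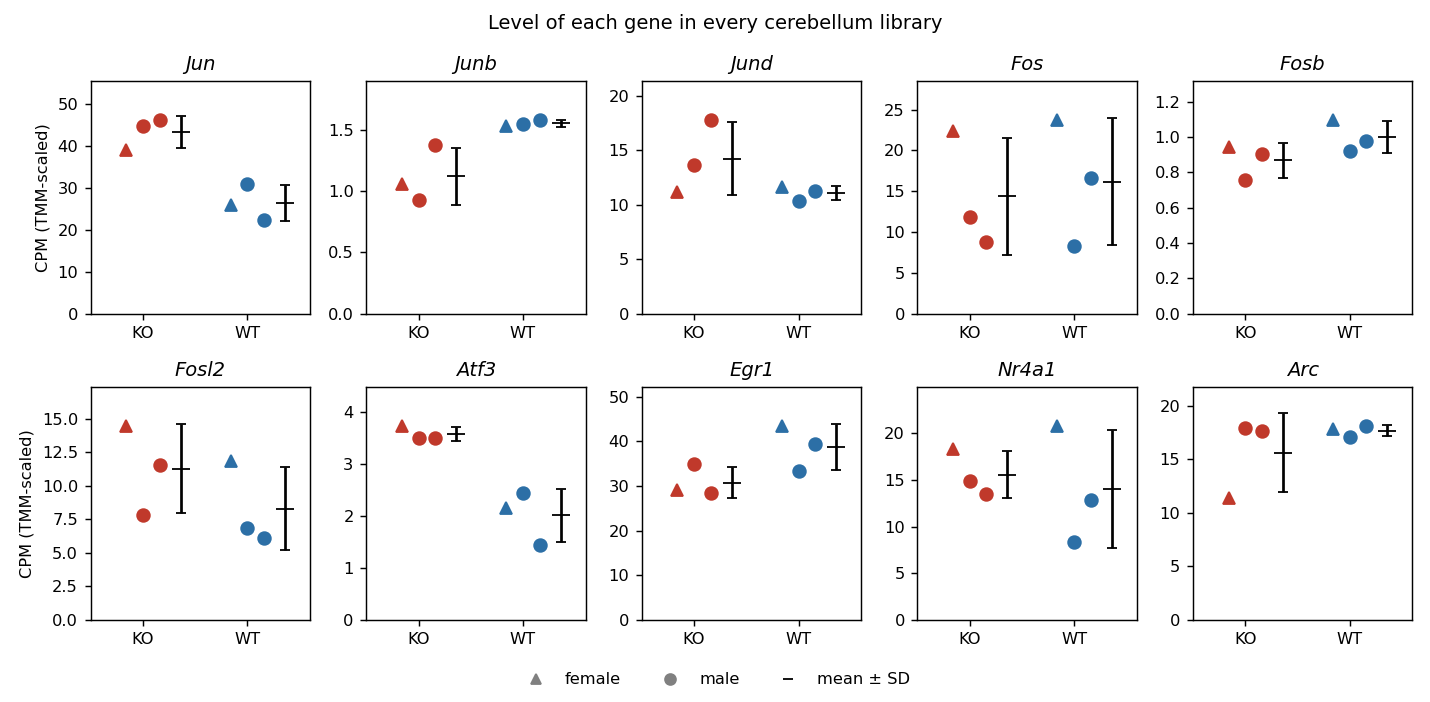
Level of each of the 10 genes in CPM (y axis, from 0) in KO (red, left) and WT (blue, right), with 1 point per mouse, triangles for females, circles for males, and the mean ± SD in black. Jun and Atf3 lie higher in all 3 KO mice, Junb lies lower, and Fos, Fosl2 and Nr4a1 are highest in the females of each genotype.

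Jun encodes c-Jun, the founding member of AP-1 and a protein that JNK phosphorylates. The gene (ENSMUSG00000052684) lies on chromosome 4 at 95049034 to 95052222 of mm10, is a single exon in GENCODE, and had 39.0, 44.8 and 46.2 CPM in KO and 25.8, 30.9 and 22.3 CPM in WT. The lowest KO mouse, the female, stood above the highest WT mouse. The means were 43.3 ± 3.84 CPM in KO and 26.3 ± 4.30 CPM in WT (SD, n = 3 each), a log2 fold change of 0.72 with a standard error (SE) of 0.12, or 1.64-fold. Junos, an antisense gene that overlaps Jun, held reads equal to 4.19% of those of Jun, and without a stated strand setting the reads of the pair cannot be told apart.

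Jund encodes JunD, the Jun protein that is present in most resting cells. It had 11.2, 13.7 and 17.8 CPM in KO and 11.6, 10.3 and 11.3 CPM in WT. Both KO males were above every WT mouse, and the KO female fell inside the WT range. The log2 fold change was 0.35 (SE 0.16). It was 0.19 without KO replicate 3, the highest library, 0.53 without KO replicate 1 and 0.54 without WT replicate 1. Junb, which encodes a Jun protein that can restrain c-Jun, had 1.06, 0.927 and 1.38 CPM in KO and 1.53, 1.55 and 1.58 CPM in WT. Every KO mouse was below every WT mouse, by a log2 fold change of -0.47 (SE 0.24). The 3 Jun genes therefore had different values in the same libraries, Jun above 0, Jund above 0 with overlap, and Junb below 0.

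Fos encodes c-Fos, which cannot pair with itself and needs a Jun partner. It had 22.4, 11.8 and 8.79 CPM in KO and 23.7, 8.24 and 16.6 CPM in WT. The genotypes overlapped over nearly their whole range, at a log2 fold change of -0.20 (SE 0.24), and its value ran from -0.42 without WT replicate 2 to 0.14 without WT replicate 3. Fosl2, which encodes the Fos-related protein Fra-2, had 14.5, 7.86 and 11.5 CPM in KO and 11.8, 6.88 and 6.13 CPM in WT, a log2 fold change of 0.48 (SE 0.17) with overlapping groups, and of 0.30 without KO replicate 3. Fosb encodes FosB and, by splicing, the long-lived DeltaFosB, which a count per gene does not separate. It had 0.944, 0.755 and 0.905 CPM in KO and 1.10, 0.922 and 0.977 CPM in WT, a log2 fold change of -0.20 (SE 0.24), and of -0.13 without KO replicate 2.

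Atf3 encodes a stress-induced ATF protein that pairs with Jun and marks neurons with a damaged axon. It had 3.74, 3.50 and 3.51 CPM in KO and 2.16, 2.44 and 1.45 CPM in WT. The KO mice lay close together and all above WT, with means of 3.58 ± 0.134 CPM in KO and 2.02 ± 0.51 CPM in WT (SD, n = 3 each). The log2 fold change was 0.83 (SE 0.22), or 1.78-fold, the largest of the 10, on 43 to 102 reads per library. It ranged from 0.64 to 1.05 when each library was left out in turn, and that of Jun from 0.57 to 0.84.

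Egr1, Nr4a1 and Arc are the activity genes outside AP-1. Egr1 encodes a zinc finger factor induced by synaptic activity and had 29.1, 34.9 and 28.4 CPM in KO and 43.5, 33.3 and 39.5 CPM in WT. One KO male lay above the lowest WT mouse, and the log2 fold change was -0.33 (SE 0.12). It was -0.21 without KO replicate 1 and -0.20 without WT replicate 1. Nr4a1 encodes an orphan nuclear receptor, Nur77, and had 18.3, 14.9 and 13.5 CPM in KO and 20.8, 8.30 and 12.9 CPM in WT, a log2 fold change of 0.22 (SE 0.19) that was 0 without WT replicate 2. Arc encodes a synaptic protein that promotes the removal of AMPA receptors. It had 11.4, 17.9 and 17.6 CPM in KO and 17.9, 17.1 and 18.1 CPM in WT. Its log2 fold change of -0.20 (SE 0.14) came with 1 low library, the KO female, and was 0.01 without that library.

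Marker sums of microglia and of Purkinje cells separated the genotypes in the same libraries, while those of blood and choroid plexus overlapped. The 10 microglia and macrophage markers had log2 fold changes above 0 in 10 of 10, with a summed level of 316, 307 and 361 CPM in KO and 244, 197 and 231 CPM in WT. The 10 Purkinje cell markers were below 0 in 10 of 10, with 7956, 6882 and 7570 CPM in KO and 11368, 10501 and 11052 CPM in WT. The 5 blood markers were above 0 in 5 of 5 (median 0.56), with overlapping sums of 110, 77.2 and 157 CPM in KO and 88.5, 71.8 and 72.7 CPM in WT. The 8 choroid plexus markers were above 0 in 8 of 8 (median 0.50), with overlapping sums of 1639, 5066 and 1620 CPM in KO and 81.7, 4707 and 3115 CPM in WT. None of these markers was at 0 in all libraries. Their part in the values of Jun, Atf3 and Junb was not tested.

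The second comparison, female against male within the same fit, is not the one the members were chosen for, so it was tested, though the test was set up with earlier results of these data known. Fos, Fosl2 and Nr4a1 were higher in both females than in any male, whichever the genotype. None of the 10 passed at an adjusted p under 0.05 by edgeR, where 6 of 16934 genes (0.0354%) did, and 3 of the 10 had an unadjusted p under 0.05. In 9.73% of all genes both females lay above all males, and 3.24% were higher in females at an unadjusted p under 0.05. Each genotype has 1 female. Those 2 libraries also stand apart, each on a different principal component, so sex and the other differences of these libraries cannot be told apart.

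Fos had 22.4 CPM in the KO female and 23.7 CPM in the WT female, against 8.24 to 16.6 CPM in the 4 males. The fold was 2.04 (log2 1.03, SE 0.25), with an unadjusted p of 0.00323 and an adjusted p of 0.621 in edgeR. The log2 value was 0.90 without the KO female and 1.12 without the WT female. Fosl2 had 14.5 CPM in the KO female and 11.8 CPM in the WT female, and 6.13 to 11.5 CPM in males. Its log2 difference was 0.72 (SE 0.17, edgeR unadjusted p = 0.00268, adjusted p = 0.597). The highest male, KO replicate 3 at 11.5 CPM, came close to the WT female.

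Nr4a1 had 18.3 CPM in the KO female and 20.8 CPM in the WT female, and 8.30 to 14.9 CPM in males, a log2 difference of 0.68 (SE 0.20, edgeR unadjusted p = 0.0089, adjusted p = 0.715). It was 0.94 without the KO female and 0.37 without the WT female. Jun and Atf3 showed no such separation: Jun was at -0.13 (SE 0.13, edgeR adjusted p = 0.799) and Atf3 at 0.12 (SE 0.23, edgeR adjusted p = 0.891). The other 5 ranged from -0.29 for Arc to 0.20 for Fosb, with overlapping sexes in each. Choroid plexus markers ran the other way in the same libraries. All 8 were below 0 in females (median log2 difference -1.97), with a sum of 1639 CPM in the KO female and 81.7 CPM in the WT female, and of 1620 to 5066 CPM in males. The part of this in the Fos, Fosl2 and Nr4a1 values was not tested.

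**Figure D2:**
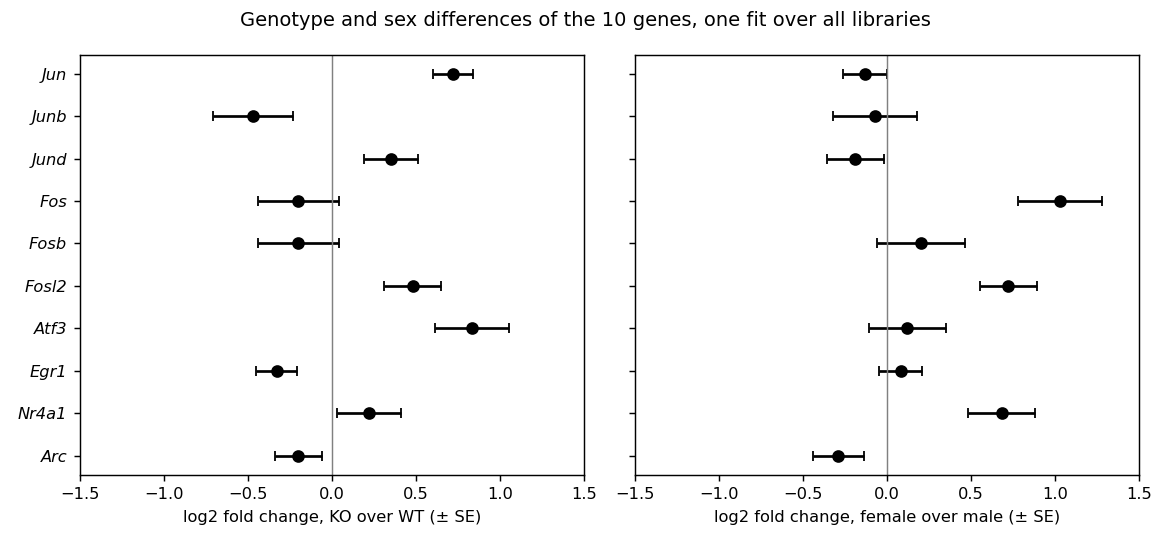
Log2 fold change (x axis) of each of the 10 genes, KO over WT on the left and female over male on the right, with bars of ± 1 SE, from one fit over 6 libraries. Jun (0.72) and Atf3 (0.83) lead on the left and are near 0 on the right, where Fos (1.03), Fosl2 (0.72) and Nr4a1 (0.68) lead.

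Levels were compared between genes per kilobase of gene model, with the lengths of the count table. The spans of Junb, Jund, Fosb, Fosl2 and Nr4a1 there differ from those in GENCODE, so the order may depend on the models used. Jund starts at 70697739 in the count table and at 70698949 in GENCODE, with the same end. The shorter model would give Jund a higher level. Over the 6 libraries Jun was the most abundant at 10.9 ± 3.14 CPM per kilobase, then Egr1 at 7.76 ± 1.31, Fos at 6.49 ± 2.87, Nr4a1 at 5.98 ± 1.77, Arc at 5.45 ± 0.857 and Jund at 4.39 ± 0.958 (SD, n = 6). The range of each of these overlapped that of the next in the order. The order of the first genes differed by genotype: in KO Jun was at 13.6 ± 1.21 and Egr1 at 6.87 ± 0.795 CPM per kilobase, and in WT Jun was at 8.26 ± 1.35 and Egr1 at 8.64 ± 1.14 CPM per kilobase (mean ± SD, n = 3 each), so that Egr1 led by less than the spread in WT. A gap without overlap separated Jund from Fosl2 (1.67 ± 0.565), Atf3 (1.30 ± 0.427) and Junb (0.727 ± 0.151), and another separated Junb from Fosb (0.249 ± 0.0296).

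Within the Jun and Fos families, Jun made up 42.2%, 54.3% and 52.9% of the summed level per kilobase of the 6 genes in KO and 31.9%, 50.9% and 34.7% in WT. The sum itself was 28.9, 25.9 and 27.4 CPM per kilobase in KO and 25.3, 19.0 and 20.1 in WT. Fos supplied 32.9%, 19.4% and 13.7% in KO and 39.8%, 18.4% and 35% in WT. Fos was thus the larger of these 2 genes in the WT female and, by a narrow margin, in WT replicate 3, and Jun in the other 4 libraries. Junb and Fosb together were a minor share in every library.

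**Figure D3:**
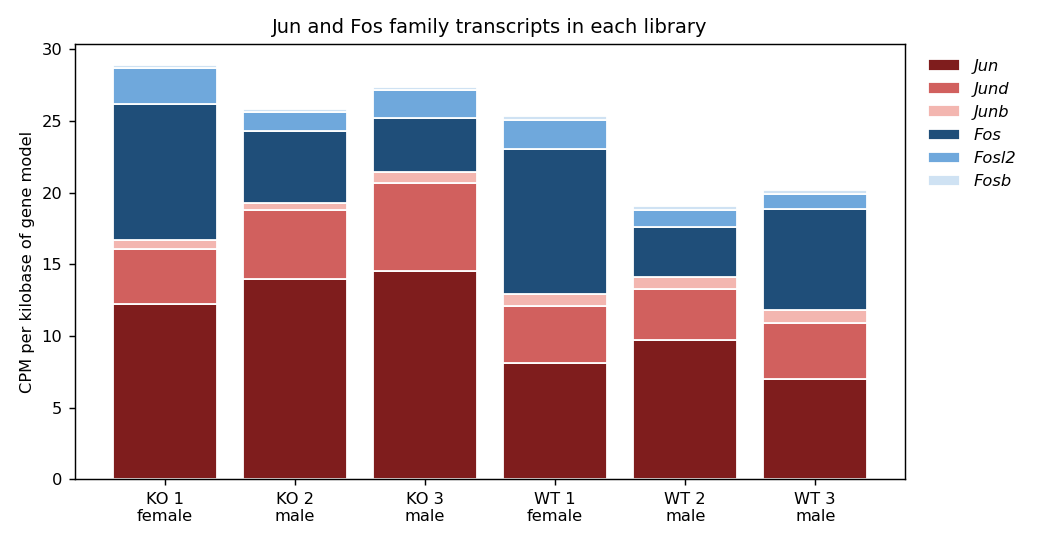
Stacked level of the 6 Jun and Fos family genes in CPM per kilobase (y axis, from 0) in each library, KO left and WT right, with the sex under each bar. Jun (dark red) is tallest in the KO males, at 14.0 and 14.5, and Fos (dark blue) in the females, at 9.52 in KO and 10.1 in WT.

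Beyond genotype and sex, Fos varied more between mice than most genes. Its biological coefficient of variation in the fit was 21.1%, higher than that of 91.5% of all genes tested, where the median was 11.3%. Nr4a1 and Atf3 had 16.9% each (above 80.7% and 80.6% of genes), and Jun 11.4% and Egr1 11.5%, close to the median. With genotype and sex differences included, the highest library exceeded the lowest 2.88-fold for Fos, 2.58-fold for Atf3 and 2.07-fold for Jun. For Atf3 and Jun the highest was a KO library and the lowest was WT replicate 3. For Fos they were the WT female and WT replicate 2.

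The genes with the pattern most like that of Jun over the 6 libraries were Pag1, Copz2, Snrpg, Ankrd50 and Pyroxd1, with Pearson r of 0.972 to 0.986 on log2 CPM, given as a description. Those most like Fos were Rims1, Usp31, Rab3gap2, Rarb and Lgr5, at 0.987 to 0.991. Among the 11901 genes compared, 83 exceeded an r of 0.9 with Jun and 201 with Fos, and the libraries share depth and cell makeup. Neither set of 5 includes another of the 10 genes. Atf3, Junb and Fosb could not appear, since their means lay under the 5 CPM needed to be compared.

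Related genes outside the 10 were taken from 6 lists, described by counts beside all genes tested. Of 36 other immediate early genes tested (39 listed), 0 passed over all genes in edgeR between genotypes, with a median log2 fold change of 0.08, and 4 had an unadjusted p under 0.05, against 8.96% of all genes. Sgk1, a kinase gene, had 154, 83.0 and 128 CPM in KO and 113, 74.9 and 77.4 CPM in WT (0.46, SE 0.14, edgeR adjusted p = 0.356). Nr4a3, a paralog of Nr4a1, was at 0.49 (SE 0.38, edgeR adjusted p = 0.773), and Npas4, an activity-dependent factor of neurons, at -0.62 (SE 0.72, edgeR adjusted p = 0.848). The phosphatase gene Dusp5 was at 0.07 (SE 0.09, edgeR adjusted p = 0.848) and the clock gene Per1 at 0.18 (SE 0.17, edgeR adjusted p = 0.814).

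Between the sexes, both females exceeded all males in 13 of these 36 genes, where 9.73% of all genes did so, and 9 of 36 were higher at an unadjusted p under 0.05, where 3.24% of all genes were. Taken alone, the KO female exceeded all males in 20 of the 36 (31% of all genes) and the WT female in 16 (27.7%). None passed over all genes in edgeR, and the choroid plexus and principal component differences of the same libraries apply here too. Dusp5 had 140 CPM in the KO female and 142 CPM in the WT female, and 92.6 to 113 CPM in males (log2 0.50, SE 0.09, edgeR adjusted p = 0.333). Bdnf, a neurotrophin gene, and Nr4a2, another Nr4a paralog, were picked after their values were seen. Bdnf was at 0.70 (SE 0.12, edgeR adjusted p = 0.234), with 19.5 CPM in the KO female and 20.4 CPM in the WT female, and 10.8 to 13.5 CPM in males. Nr4a2 was at 0.75 (SE 0.20, edgeR adjusted p = 0.705).

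Other leucine zipper partners of AP-1 included 0 of 11 tested genes past the threshold in edgeR (16 listed), with 4 higher at an unadjusted p under 0.05, where 4.71% of all genes were, and a median of 0.04. Fosl1, Batf, Batf2, Batf3 and Cebpb had too few reads to be tested. Maff, a small Maf gene, had 1.57, 1.10 and 1.66 CPM in KO and 1.30, 0.428 and 0.404 CPM in WT (1.13, SE 0.36, edgeR adjusted p = 0.361). Atf7 was at 0.22 (SE 0.07, edgeR adjusted p = 0.355), and Atf2 and Atf4 were at 0.02 and -0.06.

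Upstream of Jun, 0 of 20 genes of the JNK pathway passed in edgeR, 1 had an unadjusted p under 0.05, against 8.96% of all genes, and the median was -0.02. That gene was Dusp16, a phosphatase that removes phosphate from JNK, with 77.5, 65.3 and 67.7 CPM in KO and 51.5, 51.4 and 42.4 CPM in WT. All KO mice lay above all WT mice, at 0.53 (SE 0.09, edgeR adjusted p = 0.066). The kinase gene Mapk9 (-0.02), the scaffold genes Mapk8ip2 (-0.13) and Mapk8ip3 (-0.20) and the upstream kinase gene Map3k10 (-0.28) had edgeR adjusted p-values of 0.709 to 0.945. Of 27 regulators that act through ERK, SRF and CREB, 0 passed in edgeR, with 2 at an unadjusted p under 0.05, against the same share, and a median of 0. Mef2c, a factor of neuronal activity, was lower in all KO mice than in any WT mouse, at -0.22 (SE 0.08, edgeR adjusted p = 0.427). Crem was at 0.19, and the abundant Camk4 and Mef2d were at 0.07 and 0.06, with edgeR adjusted p-values of 0.765 to 0.855.

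Downstream, 1 of 21 AP-1 target genes rose in KO in edgeR, where 0.136% of all genes did, and 20 did not pass, with a median of 0.21 and 10 higher at an unadjusted p under 0.05, against the same 4.71% of all genes. Timp1, an inhibitor of matrix proteases, rose to 1.5, 1.82 and 1.85 CPM in KO, against 0.499, 0.560 and 0.607 CPM in WT (1.62, SE 0.23, edgeR adjusted p = 0.044). It passed in 1 of the 6 fits that leave out a library, without KO replicate 3, and it overlaps another gene with far more reads, Syn1 (41154 reads against 192 for Timp1 over the 6 libraries). Spp1, which encodes osteopontin, had 69.7, 60.2 and 53.9 CPM in KO and 32.8, 32.5 and 42.3 CPM in WT. It did not pass in the main fit (0.77, SE 0.14, edgeR adjusted p = 0.0853). It did pass with no filter, in DESeq2, with no sex term, with GC and length offsets and without KO replicate 3. Mmp12, a protease gene with a mean of only 0.83 CPM, is named after its values were seen. It had 1.85, 0.549 and 1.85 CPM in KO and 0.432, 0.0988 and 0.202 CPM in WT. Its log2 fold change was the largest of the tested targets, 2.56 (SE 0.54, edgeR adjusted p = 0.145). Mmp12 passed with no filter, in DESeq2 and without KO replicate 3. Microglia make several products of this list, and the microglial marker sum was higher in the same KO libraries. Its part in the list was not tested. The abundant members Vim, Gclm and Fn1 were at 0.02, -0.03 and 0.14.

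Of 23 neuronal injury response genes tested (28 listed), 1 rose in edgeR, where 0.136% of all genes did, 22 did not pass and the median was 0. Hrk, an activator of apoptosis in neurons, rose to 18.4, 30.1 and 27.5 CPM in KO, against 8.25, 14.3 and 11.3 CPM in WT (1.17, SE 0.12, edgeR adjusted p = 0.0134). It did not pass without WT replicate 2 or WT replicate 3. Gal, the galanin gene, had the largest log2 fold change of the list in size, -2.17 (SE 0.41, edgeR adjusted p = 0.0962), and is named after its values were seen. It had 0.118, 0.103 and 0.109 CPM in KO and 0.532, 0.527 and 0.472 CPM in WT, under the level the naming rule asks for, and it passed in edgeR with no filter (adjusted p = 0.0453) and with GC and length offsets (adjusted p = 0.0392). The axon growth genes Gap43 and Stmn2 were at 0.06 and -0.11, the neuropeptide gene Npy at -0.37 and the tubulin gene Tubb2b at -0.18, with edgeR adjusted p-values of 0.695 to 0.842.

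**Figure D4:**
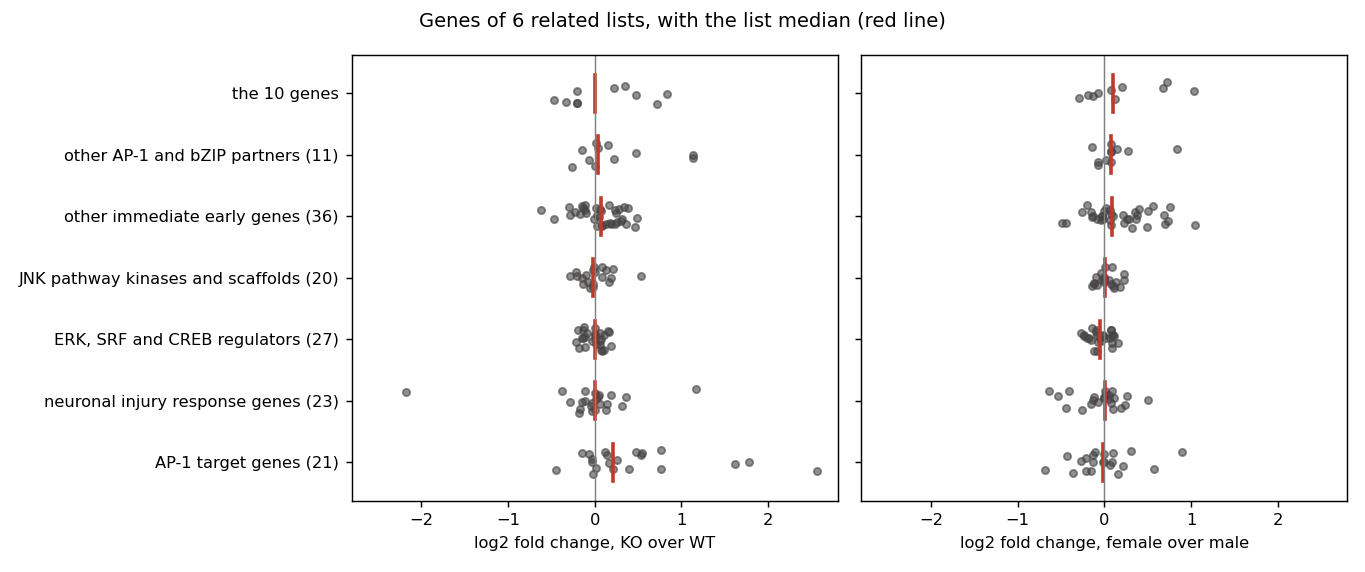
Log2 fold change of each tested gene (grey points, x axis) in the 10 genes and in 6 related lists, KO over WT on the left and female over male on the right, with the list median as a red line and the number tested in brackets. List medians lie between -0.02 and 0.21 between genotypes and between -0.05 and 0.10 between sexes.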

How the data were processed

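The deposited file is 1 table of raw counts of reads per gene and library, with coordinates, gene length, symbol and biotype per the file headers. The submitters' processing notes name STAR and mm10. How reads were counted, with which annotation and strand setting, is not given in the sources used here. All 37 mitochondrial genes held 0 counts. No replicate was a copy of another (chi-square of 7.45 to 31.1 for each degree of freedom over pairs), and replicate numbers follow the order of deposit. The protocol lists mice by genotype and sex, so each library is taken as 1 mouse.

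The count model used edgeR 4.0.16 in R 4.3.3: filterByExpr on genotype (minimum count 10, minimum total 15), TMM, a model of sex and genotype (residual degrees of freedom 3), estimateDisp and robust glmQLFit, with two-sided quasi-likelihood tests and Benjamini-Hochberg adjustment over 16934 genes at 0.05. SE is the absolute log2 fold change over the square root of F. The members, the lists and the tests were chosen with earlier results of these data known. From each list the text names the members past the threshold, the 3 most abundant and the 2 with the largest fold change at a mean of at least 1 CPM, and as most like Jun or Fos the 5 genes of highest r whose mean reached 5 CPM. Some genes that this rule picks are not reported here. As alternatives DESeq2 1.42.0 and limma 3.58.1 (voom) were run, with GC content known for 99.0% of genes tested. Counts were simulated for the KO against WT comparison over 16934 genes, in 2 runs of 200 changed genes. All changed genes averaged 50 counts or more, which Junb and Fosb do not reach. On these counts, edgeR called 62.0% of the changes of 1.5-fold and 95.0% of those of 2-fold. Each gene was given the spread typical of its level, so these shares do not cover a gene with more spread, such as Fos.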

Additional observations from a re-analysis of the deposited data

How the results depend on the processing

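No paired analysis was possible because the labels give no replicate numbers; the sample titles hold codes, some shared by KO and WT mice, that the labels do not explain and that were not used as a term. The number of genes past the threshold between KO and WT was 75 with RLE size factors, 199 with no filter, 76 where the mean reached 1 CPM, 232 in DESeq2, 111 in males only and 271 with GC and length offsets, against 48, and 1 to 156 when each library was left out (1 without WT replicate 2 or 3, 16 without KO replicate 2). Between female and male it was 41 with no filter, 57 in DESeq2 and 12 with the offsets, against 6, and 8 to 69 with a library left out. The median of the 10 genes was 0.22 with a mean of at least 1 CPM, where Fosb was left out, 0.21 in males only, and -0.11 to 0.23 with a library left out. AP-1 targets past the threshold numbered 3 with no filter and in DESeq2, 2 with no sex term and with the offsets, 0 in males only and 0 to 3 with a library left out. Timp1 was not among the calls without KO replicate 1 or 2 or any WT replicate. Injury genes numbered 2 with no filter and with the offsets, 0 with no sex term and 0 to 1 with a library left out (0 without WT replicate 2 or 3). For the JNK list it was 1, Dusp16, with no filter, in DESeq2 and with the offsets, and 0 to 1 with a library left out. The cause of these changes was not tested.

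The log2 fold changes of Jun, Junb, Jund, Fosl2, Atf3 and Egr1 between genotypes kept their sign in all 14 alternatives. Between the sexes, Fos (0.86 to 1.29), Fosl2 (0.58 to 0.85) and Nr4a1 (0.37 to 0.94) kept their sign in all 12 alternatives. Fos passed in DESeq2 (adjusted p = 0.0179; range over alternatives 0.0179 to 0.982) and Fosl2 without KO replicate 3 (adjusted p = 0.0324; range 0.0324 to 0.982). Reversed signs were Junb at 0.11 and Jund at 0.06 with the offsets, Jund at 0.07 without KO replicate 1, Junb at 0.03 without KO replicate 3, Egr1 at -0.12 and -0.01 without WT replicates 1 and 2 and Atf3 at -0.02 without WT replicate 3. With each library left out, Junb ran from -0.18 to 0.03, Jund from -0.49 to 0.07, Egr1 from -0.12 to 0.22 and Atf3 from -0.02 to 0.28. Leaving out a female leaves 1, whose spread is assumed to be like that of the males. Counts of 22 to 102 reads limit Fosb, Junb and Atf3.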
